A study of Mus musculus with 12 samples.

Results

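Liver of mice kept on a high-fat diet and dosed with MEC1 (HFD+MEC1) was compared with liver of mice kept on a normal diet (ND), gene by gene. The comparison took the 4 libraries titled HFD+MEC1 and the 4 titled ND, 8 of the 12 RNA sequencing libraries of the series, and covered the 14172 of 24787 genes that had enough counts. Both groups were C57Bl/6 mice, and the labels name no allele or transgene in either. ND mice ate the normal diet. HFD+MEC1 mice ate the high-fat diet, and after 2 months of diet mice on it were assigned at random to vehicle or to daily intraperitoneal MEC1 at 0.5 mg/kg. The other 4 libraries, from mice on the high-fat diet with vehicle, entered only the estimate of spread. MEC1 is known here by its code name. The title of the series names PROTACs, molecules that hold a ubiquitin ligase and its target together, and also mitophagy, in which autophagy removes mitochondria.

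Diet, compound and injection all differ between these groups or may do so, and their parts in any difference cannot be told apart. Neither the length of dosing, nor any injection of ND mice, nor sex and age are given in the sources used here. They also do not say that each library came from a different mouse, so that p-values measure only the spread between these samples. Totals ran from 39916405 to 51340317 counts per library. Levels are CPM, counts relative to the library total after scaling of the libraries, listed in the order of replicates 1 to 4. Differences are log2 fold changes of HFD+MEC1 minus ND with their SE, from edgeR's quasi-likelihood test with Benjamini-Hochberg adjustment over all tested genes, with n = 4 libraries in each group. A gene is called higher or lower at an adjusted p under 0.05. In whole liver, fewer cells of a type and less RNA per cell cannot be told apart.

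The liver switches between storing and burning fuel. After a carbohydrate meal, insulin and sugar act through the transcription factors SREBP1c (gene Srebf1) and ChREBP (gene Mlxipl) to raise the enzymes that build fatty acids. When fatty acids arrive in excess or in fasting, the nuclear receptor PPAR alpha (gene Ppara) raises the enzymes that oxidise them in mitochondria and peroxisomes and turn the product into ketone bodies. Hepatocytes also hold the enzymes of the urea cycle and of amino acid breakdown, and the cytochromes and conjugating enzymes that clear drugs, steroids and retinoic acid.

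In all, 644 genes were called, 4.54% of those tested. Of these, 304 were higher in HFD+MEC1 (2.15% of tested genes) and 340 were lower (2.40%). A change of at least 1 on the log2 scale was reached by 197 called genes (1.39% of tested genes), 72 higher and 125 lower. The 4 HFD+MEC1 libraries lay wholly above the 4 ND libraries for 727 genes (5.13% of tested genes) and wholly below them for 827 (5.84%), and 607 of the 644 called genes were among these. The median log2 fold change of all tested genes was 0.0032. Scaling by library totals alone shifted that median to 0.08 and the share of calls that were higher from 47.2% to 66.8%. Leaving out 1 ND library lowered the number called to 390 (replicate 1), 419 (replicate 2) or 334 (replicate 4), whereas 662 were called without replicate 3.

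**Figure D1:**
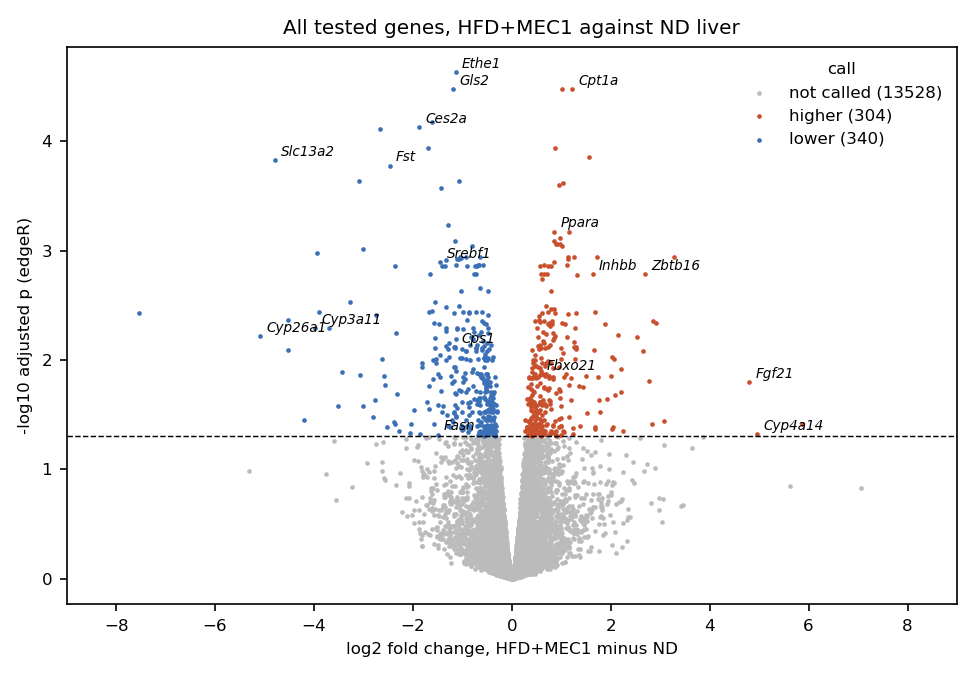
Each point is 1 of 14172 tested genes, with the log2 fold change of HFD+MEC1 minus ND on the x axis and -log10 of the adjusted p on the y axis; the dashed line marks an adjusted p of 0.05. Among the labelled genes Zbtb16 and Cpt1a stand on the higher side, and Cyp3a11, Cyp26a1 and Slc13a2 on the lower side.

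**Figure D2:**
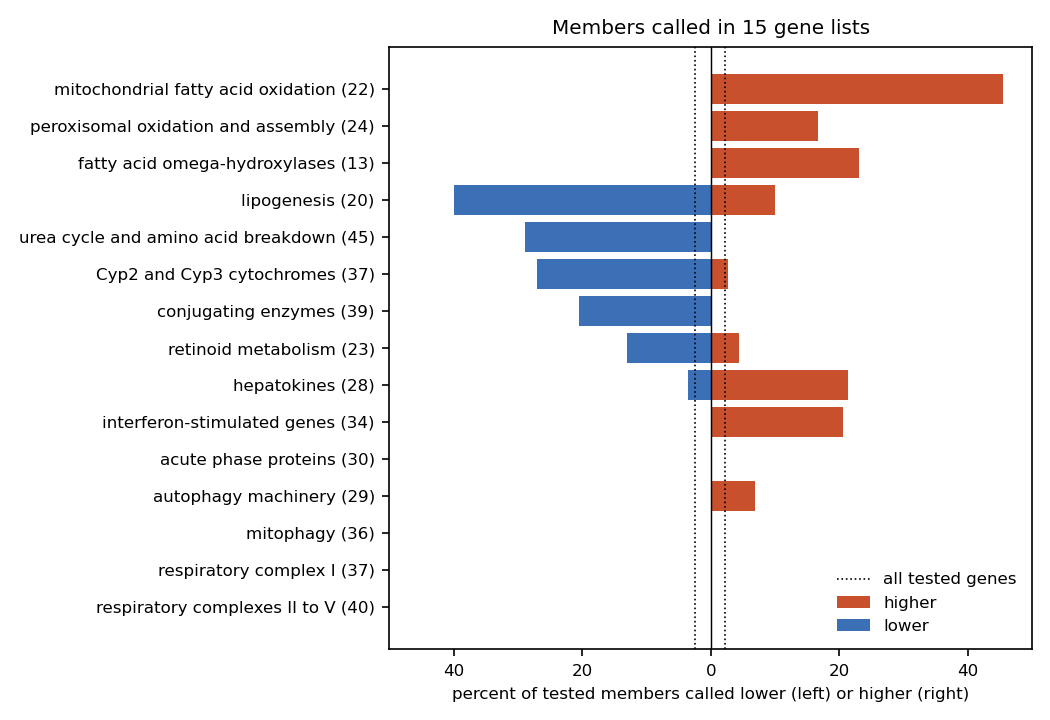
Bars give the percent of tested members (number in brackets) called lower, to the left, or higher, to the right, in 15 gene lists, and dotted lines the same for all tested genes, 2.40% lower and 2.15% higher. Fatty acid oxidation (10 of 22) has the longest bar of those drawn on the higher side and lipogenesis (8 of 20) on the lower side, while acute phase, mitophagy and respiratory complex lists have no called member.

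The HFD+MEC1 libraries were not alike. Replicate 3 stood apart in acute phase genes, which the liver secretes in inflammation: its median over the 30 tested members lay 1.72 above the ND mean on the log2 CPM scale, against -0.56 in replicate 1, 0.43 in replicate 2 and 0.39 in replicate 4. Replicate 1 had the highest median over fatty acid oxidation genes, 0.62 against 0.19 to 0.45 in the others, and a lipogenesis median of -0.02 against -1.22 to -0.46. Without replicate 1 678 genes were called, without replicate 3 459, and without both 321. Of the 94 called genes named below, 27 were not called in the fit without both, which has 2 HFD+MEC1 libraries left.

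**Figure D3:**
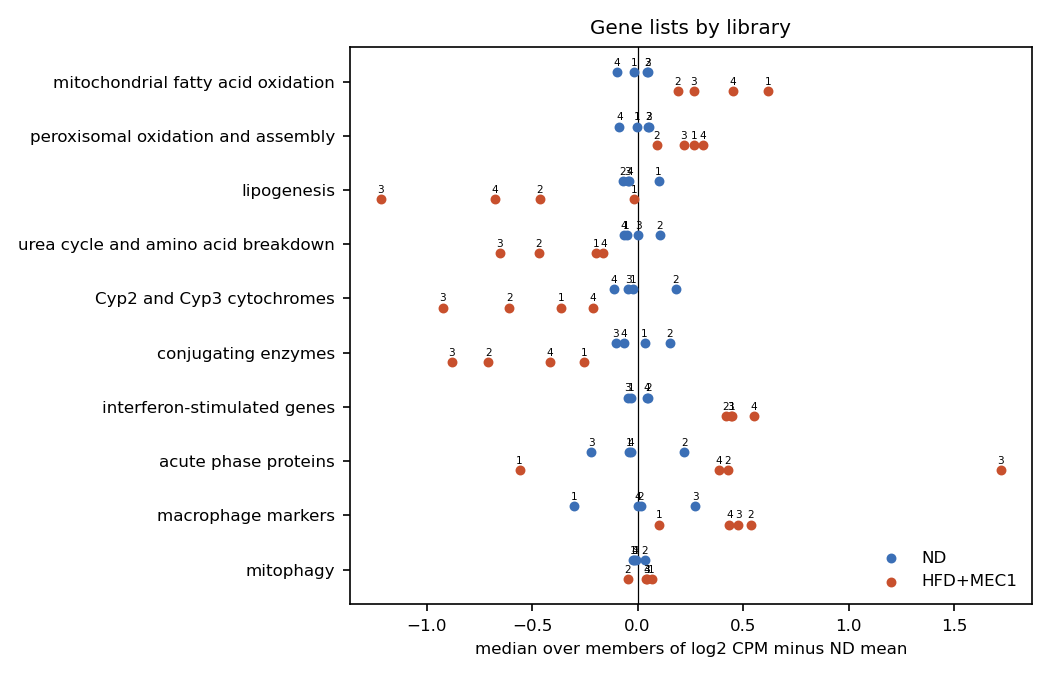
For 10 gene lists, each point is the median over tested members of log2 CPM in 1 library minus the ND mean, for ND and HFD+MEC1 libraries, with numbers for the replicates. HFD+MEC1 replicate 3 is at 1.72 for acute phase genes, and all 4 HFD+MEC1 libraries lie between 0.42 and 0.55 for interferon-stimulated genes.

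Genes of mitochondrial fatty acid oxidation were higher in HFD+MEC1. Of 22 tested members 10 were called higher, 0 lower and 12 were not called, and 20 had a positive difference, with a median of 0.40. Cpt1a, the gate for entry of long-chain fatty acids into mitochondria (chromosome 19, 3322334 to 3385733), stood at 183, 176, 213 and 171 CPM in the ND libraries and 460.3, 356, 473 and 432 CPM in the HFD+MEC1 libraries. Every HFD+MEC1 library was above every ND library, and the gene rose by 1.21 ± 0.11 (adjusted p = 3.32e-05), a fold of 2.32. Cpt2, the carnitine transferase of the inner membrane, rose by 0.48 ± 0.10 (adjusted p = 0.0111). Inside mitochondria, Hadhb, a subunit of the trifunctional protein of beta-oxidation, stood at 57.6, 51.2, 58.3 and 51.3 CPM in the ND libraries and 93.5, 72.5, 90.4 and 87.9 CPM in the HFD+MEC1 libraries. It rose by 0.66 ± 0.10 (adjusted p = 0.00134). Eci2, an isomerase for unsaturated fatty acids, stood at 123, 113, 116 and 89.9 CPM in the ND libraries and 233, 163, 223 and 211 CPM in the HFD+MEC1 libraries and rose by 0.91 ± 0.12 (adjusted p = 0.00086). The groups did not overlap for either gene. Etfdh, which passes electrons from these reactions to ubiquinone, rose by 0.45 ± 0.10 (adjusted p = 0.0134), a call lost without ND replicate 4 (adjusted p up to 0.0558). Of the members that were not called, Acadm, a medium-chain dehydrogenase, stood at 0.55 ± 0.16 (adjusted p = 0.069) and Pdk4, which holds back pyruvate oxidation, at -0.71 ± 0.35 (adjusted p = 0.316). Across fits that left out 1 library, 4 (without ND replicate 4) to 12 members were called higher, and without HFD+MEC1 replicates 1 and 3 it was 3, with a median of 0.34.

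Of the genes of ketone body metabolism, Bdh1, which interconverts the 2 main ketone bodies, stood at 123, 121, 138 and 117 CPM in the ND libraries and 318, 204, 214 and 249 CPM in the HFD+MEC1 libraries and rose by 0.98 ± 0.13 (adjusted p = 0.00086). Its groups did not overlap, and HFD+MEC1 replicate 1 had the highest level. A gene called lower was Slc16a6, a ketone body exporter (-0.58 ± 0.16, adjusted p = 0.0448), whose groups overlapped and whose call was lost without ND replicate 1, 3 or 4 or HFD+MEC1 replicate 1, 3 or 4 (adjusted p up to 0.144), and with library totals in place of TMM, in a fit of these 8 libraries alone and with log2(RPKM + 0.1) and log2(RPKM + 1).

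In peroxisomes, which shorten very long and branched fatty acids, 4 of 24 genes were called higher and 0 lower, with a median of 0.21. The higher count was 8 without HFD+MEC1 replicate 2, 2 without ND replicate 1, 2 or 4 or HFD+MEC1 replicate 3 or 4, and 9 with DESeq2. Crot, which carries shortened chains out of the peroxisome as carnitine esters, stood at 637, 576, 675 and 643 CPM in the ND libraries and 1132, 1267, 1839.9 and 1297 CPM in the HFD+MEC1 libraries. Its groups did not overlap and it rose by 1.13 ± 0.16 (adjusted p = 0.00113). Decr2, the peroxisomal dienoyl-CoA reductase, rose by 0.53 ± 0.10 (adjusted p = 0.00748). Ehhadh, a bifunctional enzyme of peroxisomal oxidation and a textbook PPAR alpha target, was not called (0.37 ± 0.12, adjusted p = 0.0875).

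Of 13 fatty acid omega-hydroxylases, which oxidise the far end of the chain, 3 were called higher and 0 lower, with a median of 0.04. Cyp4a14 had the widest spread: it stood at 16.2, 3.39, 15.6 and 6.62 CPM in the ND libraries and 1047, 38.2, 78.1 and 142 CPM in the HFD+MEC1 libraries. Its difference was 4.97 ± 1.18 (adjusted p = 0.0478), and 1 library, HFD+MEC1 replicate 1, was far above every other. The call was lost without any 1 ND library or HFD+MEC1 replicate 3 or 4 (adjusted p up to 0.131), and with library totals in place of TMM, with no filter on low counts, with limma-voom, in a fit of these 8 libraries alone and with log2(RPKM + 0.1) and log2(RPKM + 1). Cyp4a31 (2.15 ± 0.33, adjusted p = 0.00594) and Cyp4a32 (1.15 ± 0.15, adjusted p = 0.000674) rose with less spread, at 5.03 to 7.43 CPM in ND and 12.8 to 42.4 CPM in HFD+MEC1 and at 14.6 to 18.8 CPM in ND and 25.0 to 43.6 CPM in HFD+MEC1. Cyp4a genes are close copies, and reads may have been shared among them. Cyp4a10, another of the family, stood at 2.26 ± 0.69 (adjusted p = 0.106).

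Ppara itself was higher. It stood at 161, 134, 132 and 123 CPM in the ND libraries and 268, 205, 285 and 237 CPM in the HFD+MEC1 libraries and rose by 0.85 ± 0.11 (adjusted p = 0.00067), with no overlap. Of 34 nuclear receptor genes 2 were called higher, 3 lower and 29 were not called. The other receptor called higher was Nr0b2 (SHP), a repressor of bile acid synthesis, which stood at 10.9, 9.12, 18.3 and 9.70 CPM in the ND libraries and 46.1, 32.6, 43.0 and 33.1 CPM in the HFD+MEC1 libraries and rose by 1.69 ± 0.25 (adjusted p = 0.00366). Esrra, which drives genes of oxidative metabolism, fell by 0.73 ± 0.12 (adjusted p = 0.00366), from 31.7 to 37.6 CPM in ND and 16.6 to 23.3 CPM in HFD+MEC1. Vnn1, a pantetheinase of the coenzyme A cycle and among the 12 largest rises, stood at 15.5, 10.4, 17.4 and 11.4 CPM in the ND libraries and 117, 34.5, 96.2 and 67.8 CPM in the HFD+MEC1 libraries and rose by 2.53 ± 0.38 (adjusted p = 0.00615).

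**Figure D4:**
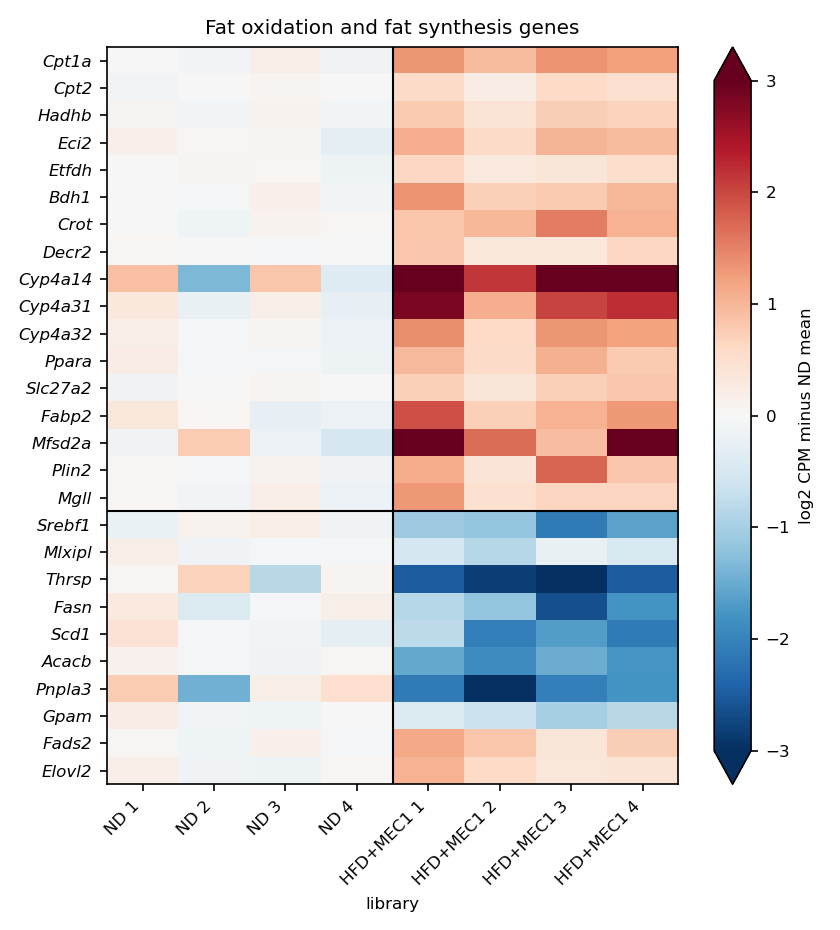
Log2 CPM relative to the ND mean for named genes of fatty acid oxidation, ketone synthesis, uptake and storage (upper rows) and of lipogenesis and triglyceride synthesis (lower rows), 1 column for each ND and HFD+MEC1 library; the colour scale is cut at -3 and 3. Oxidation genes such as Cpt1a are above the ND mean in all 4 HFD+MEC1 columns, and Srebf1 and Thrsp are below it in all 4.

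Among 17 genes of fatty acid uptake and binding, 3 were called higher and 0 lower, with a median of 0.07. Slc27a2, a very long-chain acyl-CoA synthetase and fatty acid transporter, stood at 784 to 904 CPM in ND and 1099.7 to 1475 CPM in HFD+MEC1 and rose by 0.66 ± 0.12 (adjusted p = 0.00435). Fabp2, a fatty acid binding protein best known from gut, stood at 41.5, 34.1, 27.7 and 28.8 CPM in the ND libraries and 125, 53.2, 67.2 and 80.8 CPM in the HFD+MEC1 libraries and rose by 1.31 ± 0.23 (adjusted p = 0.00791). Mfsd2a, a transporter of lysophospholipids, stood at 3.32, 6.10, 3.19 and 2.54 CPM in the ND libraries and 49.4, 11.4, 6.78 and 40.6 CPM in the HFD+MEC1 libraries, high in replicates 1 and 4 (2.84 ± 0.63, adjusted p = 0.0383). That call was lost without any 1 ND library or HFD+MEC1 replicate 1 or 4 (adjusted p up to 0.109), and with limma-voom, in a fit of these 8 libraries alone and with log2(RPKM + 1). Cd36, the fatty acid translocase, was not called, at 31.4, 43.4, 32.2 and 28.9 CPM in the ND libraries and 95.8, 38.6, 51.1 and 62.0 CPM in the HFD+MEC1 libraries (0.87 ± 0.37, adjusted p = 0.233).

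Of 14 lipid droplet genes 1 was called higher and 0 lower, with 12 positive and a median of 0.45. Without HFD+MEC1 replicate 2 the higher count was 4. Plin2, which coats lipid droplets (chromosome 4, 86648386 to 86670060), stood at 318, 292, 326 and 282 CPM in the ND libraries and 655, 400.1, 1012 and 530.1 CPM in the HFD+MEC1 libraries. It rose by 1.09 ± 0.22 (adjusted p = 0.0135). Cidec, a droplet fusion protein, stood at 1.51, 0.589, 1.81 and 0.579 CPM in the ND libraries and 12.1, 1.28, 2.80 and 1.58 CPM in the HFD+MEC1 libraries and was not called (1.99 ± 0.89, adjusted p = 0.262). The highest library was HFD+MEC1 replicate 3 for Plin2 and HFD+MEC1 replicate 1 for Cidec.

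Of 17 triglyceride genes 2 were called higher and 4 lower, with a median of 0.02. When 1 library was left out, 1 to 4 were higher and 1 to 3 lower, the lower count being 1 without HFD+MEC1 replicate 3. Mgll, the lipase that ends triglyceride breakdown, stood at 111 to 144 CPM in ND and 175 to 309 CPM in HFD+MEC1 and rose by 0.80 ± 0.16 (adjusted p = 0.0107). Gpam, which attaches the first fatty acid to glycerol phosphate, fell by 0.72 ± 0.16 (adjusted p = 0.0191), a call lost without ND replicate 1 or 4 or HFD+MEC1 replicate 3 or 4 (adjusted p up to 0.0691), and with library totals in place of TMM and with log2(RPKM + 0.1) and log2(RPKM + 1). Abhd5, the co-activator of the first triglyceride lipase, fell by 0.51 ± 0.10 (adjusted p = 0.00699).

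More lipogenesis genes were lower than higher in HFD+MEC1. Of 20 tested members 8 were called lower, 2 higher and 10 were not called, with 14 negative and a median of -0.51. Among the regulators, Srebf1 (chromosome 11, 60199089 to 60222581) stood at 255, 313, 332 and 273 CPM in the ND libraries and 138, 130.4, 67.4 and 95.1 CPM in the HFD+MEC1 libraries, with no overlap, and fell by 1.44 ± 0.19 (adjusted p = 0.00128). Mlxipl stood at 90.8 to 110.1 CPM in ND and 53.7 to 82.8 CPM in HFD+MEC1 and fell by 0.51 ± 0.11 (adjusted p = 0.0135), a call lost with log2(RPKM + 0.1) and log2(RPKM + 1). Thrsp, a cofactor of lipid synthesis that follows carbohydrate intake, stood at 323, 501, 177 and 332 CPM in the ND libraries and 55.4, 44.0, 11.04 and 55.4 CPM in the HFD+MEC1 libraries. Its difference was -3.01 ± 0.62 (adjusted p = 0.0263), and the call was lost without ND replicate 1, 2 or 4 or HFD+MEC1 replicate 2 or 4 (adjusted p up to 0.0651).

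Among the enzymes, Fasn, which encodes fatty acid synthase (chromosome 11, 120805846 to 120824547), was at 976, 584, 772 and 900.1 CPM in the ND libraries and 437, 347, 128 and 229.8 CPM in the HFD+MEC1 libraries. Its difference was -1.50 ± 0.37 (adjusted p = 0.0481), and the call was lost without any 1 ND library or HFD+MEC1 replicate 2, 3 or 4 (adjusted p up to 0.121), and with library totals in place of TMM, with no filter on low counts, with limma-voom, in a fit of these 8 libraries alone and with log2(RPKM + 0.1) and log2(RPKM + 1). Scd1, which desaturates stearate, stood at 10981, 7783, 7683 and 6782 CPM in the ND libraries and 4753, 1930.0, 2572 and 1877 CPM in the HFD+MEC1 libraries (-1.58 ± 0.38, adjusted p = 0.0383), and its call was lost without any 1 ND library or HFD+MEC1 replicate 2, 3 or 4 (adjusted p up to 0.125), and with library totals in place of TMM and with no filter on low counts. Replicate 1 was the highest HFD+MEC1 library for both genes, and no HFD+MEC1 library reached the lowest ND library. Acacb, the acetyl-CoA carboxylase whose product blocks Cpt1a, fell by 1.67 ± 0.32 (adjusted p = 0.0173), a call lost without HFD+MEC1 replicate 4 (adjusted p up to 0.0548). The 2 members called higher, Fads2 (0.79 ± 0.19, adjusted p = 0.0279) and Elovl2 (0.62 ± 0.17, adjusted p = 0.0469), desaturate and elongate polyunsaturated fatty acids. Both were chosen after their values were seen. The call of Fads2 was lost without ND replicate 1, 2 or 4 or HFD+MEC1 replicate 1, 2 or 4 (adjusted p up to 0.0845). That of Elovl2 was lost without any 1 ND library or HFD+MEC1 replicate 1, 2 or 4 (adjusted p up to 0.124). It was also lost without robust estimates and with log2(RPKM + 1). Pnpla3, a lipid droplet lipase gene induced with lipogenesis, was rare, at 1.08, 0.236, 0.725 and 0.910 CPM in the ND libraries and 0.148, 0.0786, 0.154 and 0.183 CPM in the HFD+MEC1 libraries, and fell by 2.38 ± 0.62 (adjusted p = 0.0367), a call lost without ND replicate 1, 3 or 4 or any 1 HFD+MEC1 library (adjusted p up to 0.105), and with limma-voom and with log2(RPKM + 0.1) and log2(RPKM + 1). Across fits that left out 1 library 2 to 7 lipogenesis members were called lower (2 without HFD+MEC1 replicate 4) and 0 to 3 higher, and without HFD+MEC1 replicates 1 and 3 it was 4, with a median of -0.63.

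Of 24 cholesterol synthesis and SREBP2 target genes 0 were called higher and 2 lower, with a median of -0.04 and the library medians of HFD+MEC1 running from -0.42 in replicate 3 to 0.34 in replicate 2. No member was called lower without ND replicate 1 or 4 or HFD+MEC1 replicate 3 or 4. Of 19 apolipoprotein and lipoprotein assembly genes 4 were called higher and 0 lower. The higher count was 0 without ND replicate 1 or 4, 1 without ND replicate 2 or HFD+MEC1 replicate 3 or 4, and 0 without HFD+MEC1 replicates 1 and 3. Apoa4, an apolipoprotein made with lipid load, stood at 72.7, 118, 105 and 113 CPM in the ND libraries and 533, 370.1, 738 and 252 CPM in the HFD+MEC1 libraries (2.21 ± 0.44, adjusted p = 0.0198). Its call was lost without ND replicate 1 or 4 or HFD+MEC1 replicate 3 (adjusted p up to 0.0619), and 69.8% of its exon bases are shared with genes of the other strand, whose reads cannot be separated from its own here.

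Of 21 genes of bile acid synthesis and transport 2 were called higher and 1 lower. Abcb4, which exports phosphatidylcholine into bile, stood at 152 to 189.6 CPM in ND and 265 to 370.2 CPM in HFD+MEC1 and rose by 0.85 ± 0.12 (adjusted p = 0.00128). Cyp7a1, the rate-limiting enzyme of bile acid synthesis, was not called, at 172, 239.8, 175 and 142 CPM in the ND libraries and 80.2, 183, 8.75 and 54.2 CPM in the HFD+MEC1 libraries (-1.16 ± 0.69, adjusted p = 0.418).

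Of 45 genes of the urea cycle and amino acid breakdown 13 were called lower in HFD+MEC1, 0 higher and 32 were not called. Of these 45, 39 were negative, 20 lay wholly below ND, and the median was -0.35. Cps1, the first and rate-limiting enzyme of the urea cycle (chromosome 1, 67123026 to 67231259), stood at 4542, 4519.9, 4041 and 4429 CPM in the ND libraries and 2161, 2251, 1143 and 2398 CPM in the HFD+MEC1 libraries. It fell by 1.14 ± 0.22 (adjusted p = 0.00762). Ass1, which acts later in the cycle, stood at 929.6, 1239, 994 and 1074 CPM in the ND libraries and 494, 501, 337 and 637 CPM in the HFD+MEC1 libraries and fell by 1.10 ± 0.20 (adjusted p = 0.00514). Replicate 3 was the lowest library for both genes, and the groups did not overlap.

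Other called members act on single amino acids. Gls2, the liver glutaminase (chromosome 10, 128194457 to 128210004), stood at 319, 339, 325 and 335 CPM in the ND libraries and 136, 146, 143 and 152 CPM in the HFD+MEC1 libraries and fell by 1.19 ± 0.11 (adjusted p = 3.32e-05). It was among the 8 genes with the smallest adjusted p. Hal, which starts histidine breakdown, fell by 1.07 ± 0.13 (adjusted p = 0.000231), with 349 to 409 CPM in ND and 156 to 208 CPM in HFD+MEC1. Prodh, which oxidises proline, fell by 1.13 ± 0.19 (adjusted p = 0.00644), and Cth, which makes cysteine from cystathionine, by 0.91 ± 0.16 (adjusted p = 0.00428). Tat, the tyrosine aminotransferase, missed the threshold at -0.99 ± 0.26 (adjusted p = 0.051). Across fits that left out 1 library 10 to 14 members were called lower, and without HFD+MEC1 replicates 1 and 3 it was 6, with a median of -0.30.

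Of 37 Cyp2 and Cyp3 genes, which encode cytochromes that act on drugs and steroids, 10 were called lower, 1 higher and 26 were not called, with a median of -0.46. Of the lower genes 7 were Cyp3a members. Cyp3a11, the main drug-metabolising cytochrome of mouse liver (chromosome 5, 145854426 to 145879964), stood at 4349.7, 4517, 3467 and 4089 CPM in the ND libraries and 492, 124, 84.5 and 346 CPM in the HFD+MEC1 libraries. Its highest HFD+MEC1 library was far below its lowest ND library, and it fell by 3.97 ± 0.58 (adjusted p = 0.00511), a fold of 15.7. Cyp3a44 stood at 56.8, 57.6, 40.4 and 49.2 CPM in the ND libraries and 6.40, 1.69, 1.10 and 4.43 CPM in the HFD+MEC1 libraries and fell by 3.90 ± 0.51 (adjusted p = 0.00362). Cyp3a41a stood at 22.1, 24.1, 19.4 and 21.95 CPM in the ND libraries and 2.35, 0.845, 0.488 and 2.02 CPM in the HFD+MEC1 libraries and fell by 3.93 ± 0.44 (adjusted p = 0.00105). In all 3 genes replicate 3 was the lowest library and replicate 1 the highest of HFD+MEC1.

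The Cyp3a genes lie in a cluster on chromosome 5 and are close copies, so that reads may be shared among them. The 250 bases before the start sites of Cyp3a44 and Cyp3a41a, which fell together, are shown to make that likeness visible. The sequences are from RefSeq on GRCm38.p6, 5′ to 3′ on the minus strand, at chr5:145805875-145806124 for Cyp3a44 and chr5:145720137-145720386 for Cyp3a41a. Capitals mark a match to GGNCAAAGG on either strand, the core of the element that PPAR alpha binds together with RXR.
Cyp3a44: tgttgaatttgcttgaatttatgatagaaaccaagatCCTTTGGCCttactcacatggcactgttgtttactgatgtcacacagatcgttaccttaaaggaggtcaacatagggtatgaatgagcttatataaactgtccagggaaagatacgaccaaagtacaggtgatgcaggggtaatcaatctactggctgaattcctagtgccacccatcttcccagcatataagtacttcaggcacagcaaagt
Cyp3a41a: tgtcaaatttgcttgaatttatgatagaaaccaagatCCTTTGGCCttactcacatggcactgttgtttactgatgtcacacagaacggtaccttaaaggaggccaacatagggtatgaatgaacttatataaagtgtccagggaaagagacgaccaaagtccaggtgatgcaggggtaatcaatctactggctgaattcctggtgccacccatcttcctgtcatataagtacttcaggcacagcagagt
The windows are identical at 236 of 250 positions (94.4%), and each holds 1 match, beginning at -213 from the start site. GGNCAAAGG is in 1.65% of 32851 RefSeq windows of the same length. Among tested genes with a window it is in 2.36% of 10991. It is in 12 of the 247 higher ones (4.86%) and in 11 of the 249 lower ones (4.42%). Both shares were above that of all tested genes and were like each other, and the difference from all tested genes was not tested. A match is a description of letters and not of binding.

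Outside the Cyp3a cluster, Cyp2c55 stood at 8.02, 8.39, 5.39 and 3.00 CPM in the ND libraries and 1.08, 0.825, 0.205 and 0.917 CPM in the HFD+MEC1 libraries and fell by 3.01 ± 0.40 (adjusted p = 0.000972). Cyp2f2, a cytochrome of periportal hepatocytes, fell by 0.87 ± 0.15 (adjusted p = 0.00362), with 983 to 1341 CPM in ND and 509 to 842 CPM in HFD+MEC1. Cyp1a2, a target of the aryl hydrocarbon receptor made around the central vein, fell by 1.16 ± 0.21 (adjusted p = 0.00776), with 445 to 589 CPM in ND and 133 to 324 CPM in HFD+MEC1, and was the 1 called gene of 8 in its receptor's list and of 20 in the pericentral list. The 1 higher gene, Cyp2d40, chosen after its values were seen, rose by 0.76 ± 0.16 (adjusted p = 0.0145). Its call was lost without ND replicate 1 or 4 or HFD+MEC1 replicate 3 (adjusted p up to 0.0534). The largest positive difference among the 37 Cyp2 and Cyp3 genes, 7.05, was in another gene, not called. Cyp2b10, the classic target of the drug receptor CAR, was not called, at 0.677, 4.05, 0.798 and 0.807 CPM in the ND libraries and 0.297, 0, 0 and 0.367 CPM in the HFD+MEC1 libraries (-3.23 ± 1.15, adjusted p = 0.144).

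Of 39 conjugating enzymes, which add sugar, glutathione or sulfate groups, 8 were called lower and 0 higher, 35 were negative, and the median was -0.55. Ugt2b1, a glucuronosyltransferase, stood at 785, 994, 647 and 741 CPM in the ND libraries and 368, 346, 251 and 441 CPM in the HFD+MEC1 libraries and fell by 1.17 ± 0.19 (adjusted p = 0.00372). Ugt2b35 fell by 0.90 ± 0.14 (adjusted p = 0.00138) and Gsta4, a glutathione transferase for lipid aldehydes, by 1.17 ± 0.23 (adjusted p = 0.0155). Without HFD+MEC1 replicate 1 the count of lower members was 18, and it was 4 without HFD+MEC1 replicate 3 or ND replicate 2 and 5 without ND replicate 1 or 4 or HFD+MEC1 replicate 2. Of 17 carboxylesterases, which split esters of drugs and lipids, 2 were called lower, and 4 without HFD+MEC1 replicate 1. Ces2a (chromosome 8, 104734003 to 104741634) stood at 381, 384, 394 and 351 CPM in the ND libraries and 119, 91.8, 70.4 and 132 CPM in the HFD+MEC1 libraries and fell by 1.87 ± 0.18 (adjusted p = 7.36e-05), and Ces2c fell by 1.55 ± 0.26 (adjusted p = 0.00776).

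**Figure D5:**
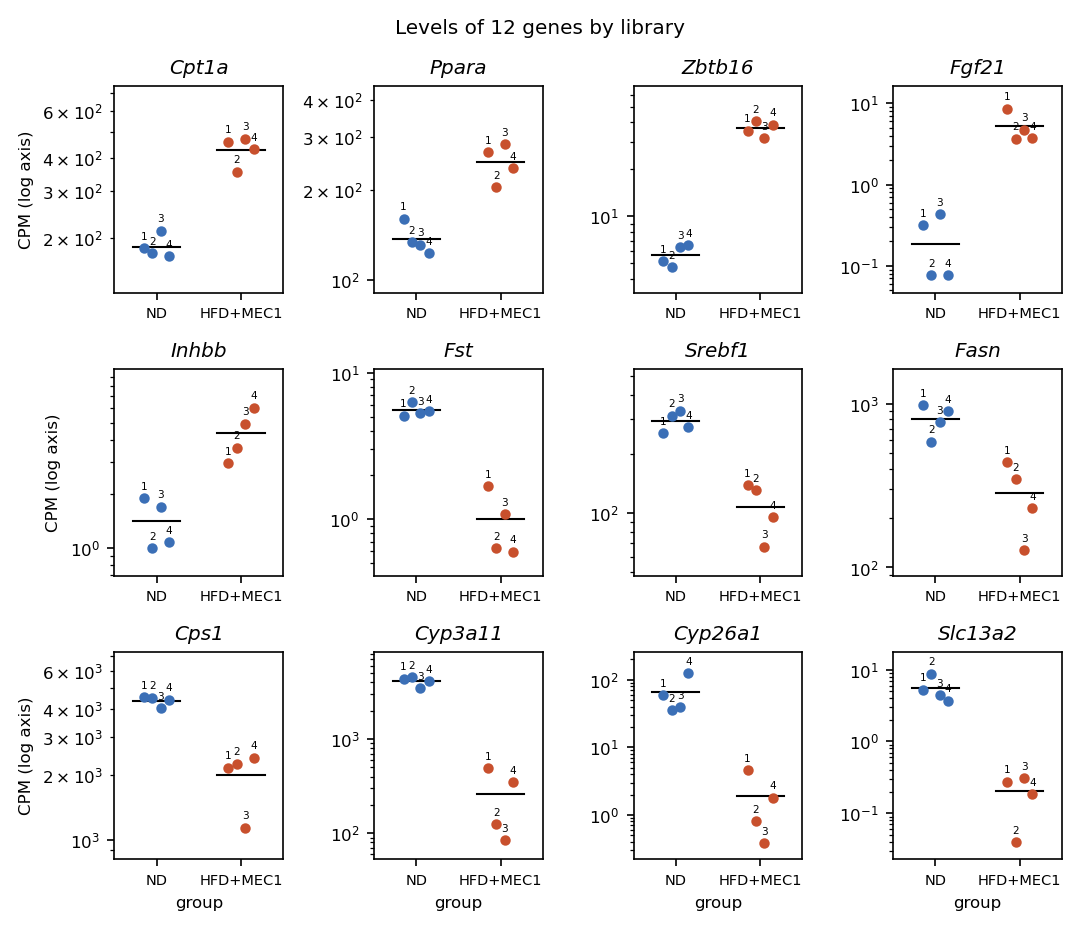
CPM on a log axis in each ND and HFD+MEC1 library for 12 genes, with replicate numbers beside the points and a line at the group mean; 2 values of 0, Fgf21 in ND replicates 2 and 4, are drawn at 0.0770 CPM, the highest level that 3 counts amount to in any library. Cyp3a11, Cyp26a1, Fst and Slc13a2 are lower in every HFD+MEC1 library than in any ND library, and Zbtb16, Fgf21 and Cpt1a higher.

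Of 23 retinoid genes 3 were called lower and 1 higher, with a median of -0.08. Cyp26a1, which degrades retinoic acid and is itself induced by it (chromosome 19, 37697798 to 37701536), stood at 59.4, 35.2, 39.3 and 127 CPM in the ND libraries and 4.62, 0.806, 0.385 and 1.79 CPM in the HFD+MEC1 libraries. It fell by 5.08 ± 0.74 (adjusted p = 0.00605), a fold of 33.9. Rarb, a retinoic acid receptor gene, fell by 1.33 ± 0.22 (adjusted p = 0.00329), with 4.29 to 7.32 CPM in ND and 1.54 to 2.79 CPM in HFD+MEC1, although 38.4% of its exon bases are shared with the other strand's genes. Adh1, an alcohol dehydrogenase that also oxidises retinol, fell by 0.62 ± 0.11 (adjusted p = 0.00557).

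Secreted regulators of metabolism, the hepatokines, held 6 higher and 1 lower of 28 tested, and the higher count was 3 without ND replicate 1, 2 or 4 and 2 without HFD+MEC1 replicates 1 and 3. Fgf21, a PPAR alpha target and fasting hormone, had 0 to 18 counts in ND libraries and 163 to 407 in HFD+MEC1 libraries. Its levels were 0.316, 0, 0.435 and 0 CPM in the ND libraries and 8.63, 3.68, 4.75 and 3.74 CPM in the HFD+MEC1 libraries (4.81 ± 0.91, adjusted p = 0.0158), and the call was lost with limma-voom. Fst, the secreted protein follistatin that binds and blocks activins, stood at 5.08, 6.27, 5.27 and 5.48 CPM in the ND libraries and 1.67, 0.629, 1.08 and 0.596 CPM in the HFD+MEC1 libraries and fell by 2.47 ± 0.28 (adjusted p = 0.000166). Inhbb, an activin subunit, stood at 1.90, 0.989, 1.69 and 1.08 CPM in the ND libraries and 2.97, 3.62, 4.93 and 6.06 CPM in the HFD+MEC1 libraries and rose by 1.63 ± 0.25 (adjusted p = 0.00163). Inhbe, a liver activin subunit, rose by 1.00 ± 0.18 (adjusted p = 0.00775), with 24.3 to 32.7 CPM in ND and 45.1 to 69.9 CPM in HFD+MEC1. None of the calls of Fst, Inhbb and Inhbe was lost when any 1 library was left out.

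The integrated stress response, which can also induce Fgf21 and Gdf15, had 1 of 20 members called higher and 2 lower. Atf4, its main transcription factor, fell by 0.61 ± 0.12 (adjusted p = 0.00782), with 84.7 to 126 CPM in ND and 57.6 to 76.1 CPM in HFD+MEC1. Atf5, a related factor tied to mitochondrial stress, rose by 0.78 ± 0.14 (adjusted p = 0.00492), with 183 to 264 CPM in ND and 328 to 433 CPM in HFD+MEC1. Gdf15 rose by 1.92 ± 0.40 (adjusted p = 0.0229), with 1.15 to 3.05 CPM in ND and 6.03 to 10.99 CPM in HFD+MEC1, a call lost without ND replicate 1, 2 or 4 or HFD+MEC1 replicate 3 (adjusted p up to 0.077), and with limma-voom. Chac1, a downstream target, was not called (2.60 ± 0.66, adjusted p = 0.052).

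Of 17 glucocorticoid-responsive genes 3 were called higher and 0 lower, with a median of 0.61. Zbtb16, a transcription factor gene (chromosome 9, 48654297 to 48836222), stood at 5.19, 4.71, 6.36 and 6.54 CPM in the ND libraries and 35.3, 40.9, 31.7 and 38.7 CPM in the HFD+MEC1 libraries. The 4 HFD+MEC1 values were close together and it rose by 2.68 ± 0.34 (adjusted p = 0.00163), a fold of 6.43. Cdkn1a, the cell cycle inhibitor p21, stood at 9.80, 19.3, 24.6 and 18.5 CPM in the ND libraries and 54.0, 53.4, 86.3 and 98.3 CPM in the HFD+MEC1 libraries and rose by 2.02 ± 0.34 (adjusted p = 0.00936). Cdkn1a is also a target of p53, as are Ccng1 (0.61 ± 0.10, adjusted p = 0.00372) and Eda2r, a receptor of the TNF family that was among the largest rises (0.181, 0.730, 0.0967 and 0.538 CPM in the ND libraries and 1.34, 2.34, 4.83 and 2.84 CPM in the HFD+MEC1 libraries, 2.85 ± 0.49, adjusted p = 0.00436). Of 31 cell cycle genes the 2 called higher were Cdkn1a and Ccng1, and 0 were lower.

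Glucose genes were called in both directions, beside 2.15% higher and 2.40% lower among all tested genes. Of 20 genes of gluconeogenesis and glycogen 1 was called higher and 1 lower, and of 28 of glycolysis, fructose and pentose phosphate metabolism 1 was higher and 3 lower, the latter count being 1 without ND replicate 1 or 3 or HFD+MEC1 replicate 3. Differences in the first of these lists ran from -5.31, in a gene that was not called, to 0.62. Ldha, lactate dehydrogenase, stood at 711, 627, 723 and 581 CPM in the ND libraries and 1104, 1462, 1875 and 1379 CPM in the HFD+MEC1 libraries and rose by 1.14 ± 0.16 (adjusted p = 0.00119). Pgd, of the pentose phosphate pathway that supplies NADPH to lipogenesis, fell by 0.61 ± 0.13 (adjusted p = 0.0135), a call lost with log2(RPKM + 1). G6pc, which releases glucose, stood at -1.20 ± 0.28 (adjusted p = 0.0356), a call lost without ND replicate 1 or HFD+MEC1 replicate 2, 3 or 4 (adjusted p up to 0.0907), and with library totals in place of TMM, with no filter on low counts, in a fit of these 8 libraries alone and with log2(RPKM + 0.1) and log2(RPKM + 1). Pck1, the entry enzyme of gluconeogenesis, was not called (0.62 ± 0.33, adjusted p = 0.341). Pgm3, which makes precursors of protein glycosylation, was among the 8 smallest adjusted p values: it stood at 22.2, 19.4, 20.2 and 23.8 CPM in the ND libraries and 43.1, 43.7, 47.4 and 39.4 CPM in the HFD+MEC1 libraries and rose by 1.02 ± 0.091 (adjusted p = 3.32e-05), with 28.3% of its exon bases shared with the other strand's genes. Of 18 clock and clock output genes 0 were called higher and 4 lower, each of them a call lost when 1 of several libraries was left out.

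Of 34 interferon-stimulated genes 7 were called higher in HFD+MEC1, 0 lower and 27 were not called. Of the 34, 30 were positive, 10 lay wholly above ND, and the median was 0.44. Usp18, which removes ISG15 from proteins, stood at 3.64, 3.25, 4.79 and 3.99 CPM in the ND libraries and 9.52, 8.45, 6.49 and 9.50 CPM in the HFD+MEC1 libraries and rose by 1.12 ± 0.17 (adjusted p = 0.00134). Ifit1, an antiviral RNA-binding protein, stood at 5.83, 5.18, 5.17 and 6.04 CPM in the ND libraries and 11.6, 10.97, 9.37 and 13.1 CPM in the HFD+MEC1 libraries and rose by 1.02 ± 0.14 (adjusted p = 0.000915). Dhx58, Isg15 and Irf9, a sensor, a ubiquitin-like modifier and a factor of interferon signalling, rose by 0.75 ± 0.13, 0.73 ± 0.15 and 0.47 ± 0.083 (adjusted p = 0.00458, 0.0101 and 0.00436). The count was 9 without HFD+MEC1 replicate 1, 8 without replicate 3 and 5 without both.

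Other inflammatory genes were called in both directions, where 2.15% of all tested genes were higher and 2.40% lower. Of 22 chemokine and inflammation genes 2 were higher and 1 lower, with 1 higher without ND replicate 1 or 4. Vcam1, an adhesion molecule for leukocytes, stood at 7.35 to 11.2 CPM in ND and 12.6 to 23.4 CPM in HFD+MEC1 and rose by 1.01 ± 0.18 (adjusted p = 0.00458). Il1b, a cytokine gene, fell by 1.45 ± 0.32 (adjusted p = 0.0144), with 1.88 to 5.35 CPM in ND and 0.917 to 1.77 CPM in HFD+MEC1, a call lost without ND replicate 2 (adjusted p up to 0.0528). Acute phase genes had 0 of 30 called by edgeR, 10 at an unadjusted p under 0.05 and 2 with DESeq2, with 29 positive and a median of 0.62. Without HFD+MEC1 replicate 3 the median was 0.15, and without replicate 1 it was 0.88 with 3 members called higher. Saa3 stood at 8.99, 17.8, 5.90 and 6.12 CPM in the ND libraries and 3.35, 22.9, 396 and 6.06 CPM in the HFD+MEC1 libraries (3.46 ± 1.38, adjusted p = 0.212), and Lcn2 at 25.4, 91.3, 13.9 and 40.7 CPM in the ND libraries and 3.65, 93.4, 1237 and 66.9 CPM in the HFD+MEC1 libraries (3.03 ± 1.46, adjusted p = 0.304). In both, replicate 3 was far above every other library and replicate 1 was the lowest of all 8. Without replicate 3 the difference was 0.16 for Saa3 and 0.35 for Lcn2.

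The calls among markers of immune and vascular cells are to be read beside the 4.54% called among all tested genes. Of 16 macrophage markers 16 were positive, 1 was called higher and the median was 0.36, with a summed level of 597 to 771 CPM in ND and 735 to 995 CPM in HFD+MEC1 libraries. Of 13 sinusoidal endothelial markers 12 were positive and 1 was called higher, with 314 to 476 CPM in ND and 484 to 571 CPM in HFD+MEC1. Cd163 and Clec4g were the called members, both lost without ND replicate 1 or 4 or HFD+MEC1 replicate 3 or 4 (adjusted p up to 0.0903 and 0.0847). Lymphocyte and neutrophil markers had 0 of 15 called by edgeR, 0 at an unadjusted p under 0.05 and 0 with DESeq2, at 18.6 to 24.0 CPM in ND and 24.1 to 37.6 CPM in HFD+MEC1, the highest being replicate 3. Of 9 cholangiocyte markers 8 were negative and 1, Epcam, was called lower (-1.59 ± 0.35, adjusted p = 0.0148), with summed levels of 32.6 to 37.0 CPM in ND and 24.9 to 41.1 CPM in HFD+MEC1. Hepatocyte markers, which define the labelled tissue, summed to 139600.0 to 157133 CPM in ND and 120552 to 146266 CPM in HFD+MEC1. Their 1 called member of 13 was Cps1. The part of these markers in the differences above was not tested.

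No listed gene of the respiratory chain was called by edgeR, beside 4.54% of all tested genes. For complex I 0 of 37 members passed, 32 were negative and the median was -0.10, and for complexes II to V 0 of 40 passed, 35 were negative and the median was -0.15. With library totals these medians were -0.02 and -0.08, and HFD+MEC1 replicate 4 had library medians of 0.02 and -0.04. Cox5a, a subunit of complex IV, stood at -0.29 ± 0.088 (adjusted p = 0.0685) and Ndufv3 of complex I at -0.30 ± 0.089 (adjusted p = 0.0635). At an unadjusted p under 0.05, 7 members of complex I and 10 of the others passed, and DESeq2 called 2 and 1.

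Mitophagy genes, named by the title of the series, had 0 of 36 members called by edgeR, 8 at an unadjusted p under 0.05 and 1 with DESeq2, with a median of 0.01. As edgeR called only 4.54% of all tested genes, the count of 0 does not set these 36 apart. Pink1, whose kinase flags damaged mitochondria for removal, was at 132, 137, 151 and 134 CPM in the ND libraries and 144, 125, 129 and 134 CPM in the HFD+MEC1 libraries (-0.059 ± 0.087, adjusted p = 0.779). Only mRNA was measured here, not the removal of mitochondria. Of 29 genes of the autophagy machinery 2 were called higher and 0 lower, 22 were positive and the median was 0.14. Atg14, a subunit of the lipid kinase complex that starts autophagosomes (chromosome 14, 47540893 to 47570649), stood at 7.83, 9.68, 12.2 and 10.6 CPM in the ND libraries and 16.4, 16.1, 20.2 and 17.6 CPM in the HFD+MEC1 libraries and rose by 0.80 ± 0.14 (adjusted p = 0.00436). Ulk1, the kinase upstream of it, rose by 0.67 ± 0.16 (adjusted p = 0.0298), a call lost without ND replicate 1, 2 or 4 or HFD+MEC1 replicate 1, 3 or 4 (adjusted p up to 0.0937).

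Of 27 ubiquitin ligase subunits of kinds that PROTACs use, 1 was called higher and 0 lower, against 2.15% and 2.40% of all tested genes. It was Fbxo21, an F-box protein that selects substrates (chromosome 5, 117976730 to 118010201), which stood at 44.2, 44.9, 67.1 and 52.2 CPM in the ND libraries and 82.2, 77.3, 83.5 and 68.9 CPM in the HFD+MEC1 libraries and rose by 0.58 ± 0.12 (adjusted p = 0.0135). Its call was lost in the edgeR fit without HFD+MEC1 replicates 1 and 3 (adjusted p = 0.116). Crbn, the ligase subunit bound by thalidomide-type drugs, stood at 39.9, 42.3, 34.8 and 41.6 CPM in the ND libraries and 44.0, 36.8, 43.2 and 42.4 CPM in the HFD+MEC1 libraries (0.069 ± 0.092, adjusted p = 0.75).

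Some of the largest and firmest differences belonged to none of these groups. Slc13a2, a transporter of citrate and other dicarboxylates (chromosome 11, 78397087 to 78422217), stood at 5.26, 8.81, 4.40 and 3.68 CPM in the ND libraries and 0.276, 0.0393, 0.308 and 0.183 CPM in the HFD+MEC1 libraries and fell by 4.79 ± 0.51 (adjusted p = 0.000149). Its antisense neighbour Slc13a2os had 42 to 98 counts in ND libraries and 0 to 1 in HFD+MEC1 libraries. The exons of both overlap in part, and the counting is not stated to use strand, so that their reads cannot be told apart. Slc25a25, a mitochondrial carrier of ATP and phosphate, stood at 274, 227, 293 and 194 CPM in the ND libraries and 74.0, 94.6, 73.5 and 61.7 CPM in the HFD+MEC1 libraries and fell by 1.70 ± 0.17 (adjusted p = 0.000116). Ethe1, which detoxifies sulfide in mitochondria (chromosome 7, 24587543 to 24608925), stood at 54.8, 58.9, 63.4 and 54.0 CPM in the ND libraries and 28.7, 22.7, 25.7 and 28.4 CPM in the HFD+MEC1 libraries and fell by 1.13 ± 0.093. Its adjusted p of 2.34e-05 was the smallest among named genes. Snhg11, a host of small nucleolar RNAs, fell by 2.67 ± 0.27 (adjusted p = 7.77e-05), with 4.16 to 5.40 CPM in ND and 0.466 to 0.983 CPM in HFD+MEC1. Fam83f fell by 3.09 ± 0.36 (adjusted p = 0.000231), with 3.84 to 9.63 CPM in ND and 0.531 to 0.963 CPM in HFD+MEC1.

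Among the largest rises outside the lists, Stap1, a signalling adaptor, was rare in ND, with 2 to 12 counts, and had 50 to 105 counts in HFD+MEC1 libraries (3.28 ± 0.47, adjusted p = 0.00113). Cntnap1, a protein of cell contacts, stood at 1.42, 0.707, 1.33 and 0.890 CPM in the ND libraries and 4.60, 4.66, 17.8 and 2.94 CPM in the HFD+MEC1 libraries (2.78 ± 0.54, adjusted p = 0.0155), with replicate 3 the highest, and its call was lost without ND replicate 2 or 4 (adjusted p up to 0.0611), and with limma-voom, in a fit of these 8 libraries alone and with log2(RPKM + 1). Rgs16, a brake on G protein signalling, had 0 to 20 counts in ND libraries and stood at 0.135, 0, 0.483 and 0.166 CPM in the ND libraries and 21.8, 1.73, 1.80 and 20.6 CPM in the HFD+MEC1 libraries, high in replicates 1 and 4. Its call (5.87 ± 1.31, adjusted p = 0.0386) was lost without any 1 ND library or HFD+MEC1 replicate 1 or 4 (adjusted p up to 0.111), and with limma-voom, in a fit of these 8 libraries alone and with log2(RPKM + 1).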

How the data were processed

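Total RNA of liver was measured in 12 libraries, assigned to 3 groups of 4 by their titles. The tissue was flash frozen and extracted with Trizol, per the labels' protocols. The authors deposited whole-number read counts per gene for each library, not normalised, and a table of RPKM values, per the file headers. The submitters' processing notes list STAR 2.7.10a and mm10. The counting tool, its annotation and its use of strand are not given in the sources used here. A further 12 columns of the RPKM table have no matching sample and were not analysed here.

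A filter on low counts (filterByExpr, edgeR 4.0.16, R 4.3.3) kept 14172 genes, which hold 99.98% of all counts. Libraries were scaled with TMM factors, and a robust quasi-likelihood model was fitted to all 3 groups, from which HFD+MEC1 minus ND was tested with edgeR, two-sided, with Benjamini-Hochberg adjustment. The common biological coefficient of variation was 0.200, and 3 counts amount to 0.0590 to 0.0770 CPM, which covers counting error only. On simulated data, 76 of 99 genes changed 2-fold, 89 of 97 changed 4-fold and 7 of 13808 unchanged genes were called. The simulation drew each gene independently at its fitted spread. It left out shifts that many genes of a library share, so these figures may not hold for the real libraries.

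The comparison, 57 gene lists and the rule for named genes were chosen with earlier results of these data known. The rule takes the 12 higher and 12 lower called genes with the largest change, no overlap between groups and at least 1 CPM, the 8 smallest adjusted p values, up to 5 called and 2 uncalled members of each list, a set of preset genes, and the 3 genes with the widest range among HFD+MEC1 libraries; a few of the genes it takes are not reported here. Lists are described by counts and medians, with no test. Coordinates are from GENCODE M21. Alternatives covered scaling, filters, DESeq2 1.42.0, limma 3.58.1 with voom, log2 of the deposited RPKM values with a pseudocount of 0.1 or 1, a replicate block and leaving out libraries.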

Additional observations from a re-analysis of the deposited data

Results flagged for a closer look

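Of 222 groups of 4 libraries looked at for the genes named here, 11 held a library whose gap to its nearest neighbour took up most of the group's range, by Dixon's criterion. Chance alone flags about 1 group in 20 when values are independent and normally spread. The genes here were chosen by their values in these same libraries, so that 11 of 222 cannot be set against that rate. The part of chance in these flags was not tested. HFD+MEC1 replicate 3 accounted for 4 of them: Saa3 at 396 CPM, the rest of HFD+MEC1 being at 3.35 to 22.9 CPM, Lcn2 at 1237 CPM against 3.65 to 93.4 CPM, Cntnap1 at 17.8 CPM against 2.94 to 4.66 CPM, and Slc13a2os, whose 0.0257 CPM there is 1 count against 0 in the others. HFD+MEC1 replicate 1 accounted for 3. Cyp4a14 was at 1047 CPM there against 38.2 to 142 CPM, Cidec at 12.1 CPM against 1.28 to 2.80 CPM, and Mgll at 309 CPM against 175 to 197 CPM. The remaining 4 were Ndufv3 at 40.9 CPM in HFD+MEC1 replicate 4 against 34.4 to 35.2 CPM, Cyp2b10 at 4.05 CPM in ND replicate 2 (0.677 to 0.807 CPM in ND otherwise), Prodh at 218 CPM in the same library against 149 to 152 CPM, and Inhbe at 32.7 CPM in ND replicate 1 against 24.3 to 24.9 CPM.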

How the results depend on the processing

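The number of called genes, 644 with edgeR, was 1155 with DESeq2 (548 higher, 607 lower and 298 with a log2 change of at least 1), which called all 644, and 593 with limma-voom, which shared 566. Leaving out 1 library gave 334 to 678 called genes, 142 to 334 higher, 192 to 358 lower and 142 to 230 changed by at least 1. An alternative added after the data were seen, without HFD+MEC1 replicates 1 and 3, gave 321, with 147 higher, 174 lower and 120 changed by at least 1. Library totals without TMM gave 201 lower genes, and RPKM gave 209 with a pseudocount of 0.1 and 208 with 1. Of the called genes 66.8%, 64.2% and 62.7% were then higher, against 47.2%. RPKM with a pseudocount of 1 left 85 genes changed by at least 1, since it shrinks low genes. The cause of the other shifts was not tested. Equal replicate numbers did not pair the libraries, with correlations of deviations of 0.058, -0.048, 0.0079 and -0.094 for numbers 1 to 4, and a fit with the replicate number as a block called 716 genes, 339 higher, 377 lower and 203 changed by at least 1, but not Cyp4a14, Fasn, G6pc, Mfsd2a, Rgs16 and Slc16a6. Of 94 called genes named here 59 were called under all 20 alternatives. No called gene changed direction. The uncalled Pink1 turned to 0.016 with library totals and 0.021 with RPKM and either pseudocount, and Crbn to -0.0012 without HFD+MEC1 replicates 1 and 3. Among genes with 1 to 20 counts 70.1 to 74.7% of counts were even, so read ends may have been counted singly and counting error of rare genes such as Fgf21 in ND may be larger than the counts imply.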

Other observations

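Growth hormone pulses set many differences between male and female mouse liver. The counts of their targets stand beside 2.15% called higher and 2.40% called lower among all tested genes. Of 28 targets that are higher in males 1 was called lower (Ugt2b1) and 0 higher, with 19 negative and a median of -0.47, and library medians of -1.14 in HFD+MEC1 replicate 1 and -0.46 to -0.06 in the others. Of 20 targets that are higher in females 4 were called lower, all of them Cyp3a genes, and 2 higher. Their differences ran from -4.53 to 7.05. The summed level of the 20 was 246 to 304 CPM in ND and 210 to 380 CPM in HFD+MEC1 replicates 2 to 4. In HFD+MEC1 replicate 1 it was 1342 CPM, and Cyp4a14 stood at 1047 CPM in that library. The 13 growth hormone signalling genes had 0 calls by edgeR, 5 at an unadjusted p under 0.05 and 2 with DESeq2.

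Endoplasmic reticulum folding genes had 21 of 23 positive differences and a median of 0.36, with 1 called higher, Pdia4, a disulfide isomerase (0.58 ± 0.13, adjusted p = 0.0215), whose call was lost without ND replicate 1 or 2 or HFD+MEC1 replicate 2 or 4 (adjusted p up to 0.0733). Without HFD+MEC1 replicate 1, 5 members were called higher. Of 22 NRF2 targets, the genes of the antioxidant response, 4 were called lower and 0 higher, with 2 lower without ND replicate 1 or 2 or HFD+MEC1 replicate 2, 3 or 4; they included the glutathione transferases Gsta4 (-1.17 ± 0.23) and Gstm1 (-0.84 ± 0.20, adjusted p = 0.0241), the latter call being lost without ND replicate 1 or 2 or HFD+MEC1 replicate 2, 3 or 4 (adjusted p up to 0.0632), and with library totals in place of TMM and with log2(RPKM + 0.1) and log2(RPKM + 1). Collagen and matrix genes had 1 of 26 called higher and 0 lower, and stellate cell markers 0 of 12 by edgeR, 0 at an unadjusted p under 0.05 and 0 with DESeq2, with summed levels of 310 to 476 CPM in ND and 271 to 452 CPM in HFD+MEC1.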
